A study of Mus musculus with 2 samples.

Results

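The genes described here are the microsomal steroid hydroxylases Cyp21a1 and Cyp17a1 and the proteins that carry electrons to them or bind beside them, namely Por, Cyb5r3, Cyb5a, Cyb5b, Pgrmc1 and Pgrmc2. They were chosen by symbol, and all 8 were found among the 55536 annotated genes. RNA came from whole adrenal glands of female B6CASTF1/J mice at 25 days of age, an F1 hybrid with a CAST parent, with no treatment named in the labels. The study holds 1 group of 2 total RNA libraries, replicate 2 and replicate 1, each made from 300 ng of RNA with a directional kit and ERCC spike-ins, which are synthetic RNAs added to the sample. Only the libraries can be set against each other. The labels name different animals in one field and the same donor in another, so every SD here is the spread between these libraries and may be technical.

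Steroid hydroxylases of the P450 family split oxygen at a heme group and need electrons one at a time. In the endoplasmic reticulum these come from NADPH through the flavoprotein encoded by Por, and for some reactions from NADH through cytochrome b5 reductase and cytochrome b5. In the adrenal cortex the enzyme encoded by Cyp21a1 makes the 21-hydroxylated precursors of corticosterone and aldosterone. The enzyme encoded by Cyp17a1 adds the 17-hydroxyl group of cortisol and opens the route to androgens. Adrenal cortex of adult mice is known to make corticosterone in place of cortisol.

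Some stretches of sequence hold a heme site, bear on how a gene was counted or bear on which protein form it encodes. They are printed 5′ to 3′ on the strand of the gene, from the GENCODE M21 transcripts, with mm10 positions. The first pair is the heme-binding loop of each hydroxylase, found in the translated coding sequence by the signature of the P450 family, with the codon of the heme-binding cysteine in capitals. The Cyp21a1 loop lies at chr17:34801978-34802007 and the Cyp17a1 loop at chr19:46667520-46667549, both on the minus strand.
Cyp21a1 heme loop: tttggctgtggggcacgcgtgTGCctggga
Cyp17a1 heme loop: ttcggagctggtccccgatcgTGCattgga

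The longest run that Cyp21a1 shares base for base with the pseudogene Cyp21a2-ps is 140 bases long, lies at chr17:34801889-34802028 within the coding sequence and holds that same loop, with the cysteine codon again in capitals. In these reference transcripts, a read that falls wholly inside it cannot be assigned to either gene by its sequence. Whether the run is also shared by the CAST alleles of the hybrid was not examined.
Cyp21a1 run shared with Cyp21a2-ps: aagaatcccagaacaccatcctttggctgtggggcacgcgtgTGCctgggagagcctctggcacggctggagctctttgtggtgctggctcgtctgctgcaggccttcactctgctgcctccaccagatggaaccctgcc

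The heme site of Cyb5b, the cytochrome b5 of the outer mitochondrial membrane, is shown with the codon of a heme-binding histidine in capitals. It spans an exon junction between chr8:107150859-107169837 on the plus strand.
Cyb5b heme site: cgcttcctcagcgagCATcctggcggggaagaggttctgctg

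The start of the Cyb5r3-201 coding sequence shows the start codons of both main Cyb5r3 transcripts in capitals, 69 bases or 23 codons apart. It spans an exon junction between chr15:83166129-83172132 on the minus strand.
Cyb5r3 start: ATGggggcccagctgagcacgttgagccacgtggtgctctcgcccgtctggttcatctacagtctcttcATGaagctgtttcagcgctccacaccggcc

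The last pair shows how Por-202 differs from Por-201 near the 3′ end of the coding sequence. Capitals mark the beginning of an intron of 92 bases, chr5:135734529-135734620 on the plus strand, which Por-202 keeps. The Por-202 stretch is chr5:135734505-135734552, and the Por-201 stretch runs across the junction from chr5:135734505-135734644.
Por-202 junction: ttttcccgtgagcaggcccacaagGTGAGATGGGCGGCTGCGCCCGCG
Por-201 junction: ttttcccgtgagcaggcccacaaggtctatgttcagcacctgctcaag

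Reads were quantified by the authors, and the expected counts, an estimate of the reads that belong to each gene, summed to 33728646 in replicate 2 and 19366343 in replicate 1. Of these, 66.1% in replicate 2 and 36.3% in replicate 1 fell on nuclear protein-coding genes, leaving out Lars2. Levels are given as deposited TPM, which are reads per transcript length scaled to a fixed sum, and as coding TPM, the same values rescaled over those coding genes. Coding genes held 338304 TPM in replicate 2 against 206815 TPM in replicate 1, so deposited TPM is higher in replicate 2 for most genes, and the SD of a level includes that gap. Markers of the adrenal cortex were detected at 1 TPM or more for 7 of 7 genes, and those of the X-zone, which borders the medulla in young mice, for 3 of 3. That level was also reached by 6 of 6 markers of the medulla and 5 of 6 of adipocytes. For endothelium it was 4 of 4, for erythroid cells 5 of 5 and for macrophages 3 of 4. Of the ovary list 0 of 4 genes reached that level, and of the Leydig cell list 1 of 3. The 7 liver markers (Alb, Apoa1, Apob, Fgb, Cps1, Serpina1b and Gc) summed to 3.77 TPM in replicate 2 against 202 TPM in replicate 1, with Gc at 0 in replicate 2. In whole tissue, fewer cells of a type and less RNA per cell cannot be told apart. Levels of the members are those of the whole sample, not of cortex cells alone.

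Cyp21a1 was the most abundant member by far, and Cyp17a1 was close to absent. Between them lay the electron carriers and the heme-binding proteins, all within a narrow range apart from Pgrmc2. The order by deposited TPM was Cyp21a1, Cyb5b, Pgrmc1, Cyb5a, Cyb5r3, Por, Pgrmc2 and Cyp17a1, and it was the same in both libraries. Each neighbour in that order was above the next in both libraries, by a mean log2 ratio within the library that exceeded its SD over the libraries. The order was taken from these same values, so this describes the order and is no support for it. With 2 values against 2 a two-sided exact permutation test cannot go below a p of 0.33, so levels of different genes carry no test.

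**Figure D1:**
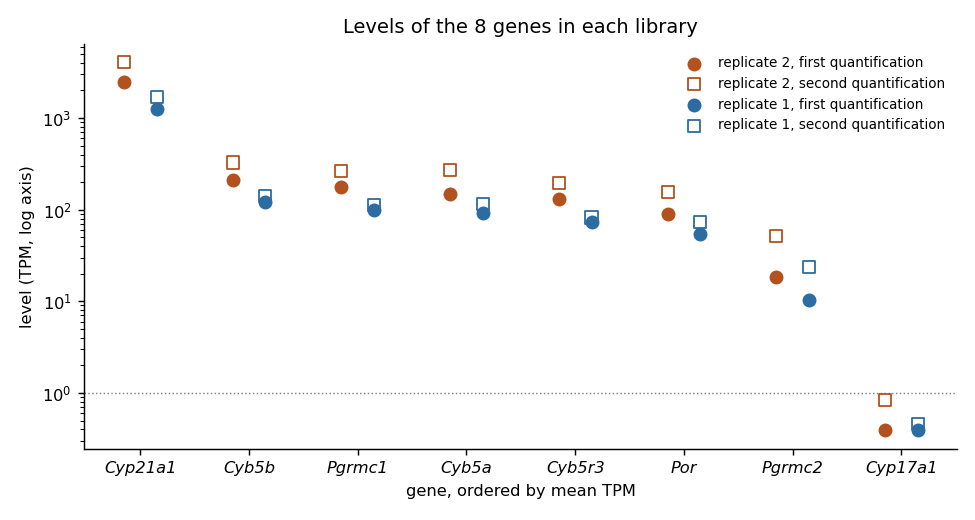
Level of each of the 8 genes in TPM on a log axis, replicate 2 (orange, left of each pair) and replicate 1 (blue, right); filled circles are the first quantification, open squares the second, and the dotted line marks 1 TPM. Cyp21a1 lies between 1266 and 4050 TPM, 6 genes lie between 10.3 and 327 TPM, and Cyp17a1 lies between 0.39 and 0.845 TPM.

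Cyp21a1 (ENSMUSG00000024365.9, chromosome 17, 34801348 to 34804561, minus strand) had 147475 expected counts in replicate 2 against 39539 in replicate 1. Its level was 2474 TPM in replicate 2 against 1266 TPM in replicate 1, or 1870 ± 854 TPM (SD, n = 2). In coding TPM it stood at 7314 in replicate 2 and 6123 in replicate 1. Among nuclear coding genes its deposited TPM ranked 4 in replicate 2 and 7 in replicate 1. It supplied 72.0% of all counts of the 8 genes in replicate 2 and 69.7% in replicate 1. After scaling of the counts by TMM, a normalization on the bulk of genes, its log2 ratio of replicate 2 over replicate 1 was 0.22 (95% Clopper-Pearson interval 0.20 to 0.23).

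Cyp21a1 has a near copy, the pseudogene Cyp21a2-ps (chromosome 17, 34719813 to 34722252), whose transcript matched Cyp21a1-201 at 97.5% of 1382 aligned bases. Of the 1959 windows of 100 bases along Cyp21a1-201, 115 (5.87%) also occurred in a transcript of another gene, always Cyp21a2-ps. They formed 5 runs of 101 to 140 bases, all coding, the longest being the run printed above. For the other members the main transcripts shared no such window with another gene. Cyp21a2-ps received 4782 expected counts in replicate 2 against 1175 in replicate 1, a level of 118 TPM in replicate 2 against 55.9 TPM in replicate 1. That was 3.14% of the counts of the pair in replicate 2 and 2.89% in replicate 1. Cyp21a1 had expected counts that were not whole, while those of the other members were whole. How many of the reads came from the pseudogene was not tested, so both levels are uncertain. With both genes summed the log2 ratio was 0.22, as for Cyp21a1 alone. By the second quantification the copy held 3.38% of the pair in replicate 2 and 2.76% in replicate 1. Tnxa, a pseudogene on the opposite strand that overlaps Cyp21a1, had 39.3 counts in replicate 2 against 12.2 in replicate 1.

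Cyp17a1 (ENSMUSG00000003555.8, chromosome 19, 46667165 to 46673172, minus strand) had 15 expected counts in replicate 2 against 12 in replicate 1. An exact Poisson interval at 95%, which covers counting error only, runs from 8.40 to 24.7 counts in replicate 2 and from 6.20 to 21 counts in replicate 1. The level was 0.39 TPM in each library, with counting intervals of 0.218 to 0.643 TPM in replicate 2 and 0.202 to 0.681 TPM in replicate 1. In coding TPM it stood at 1.15 in replicate 2 and 1.89 in replicate 1. Of 22014 nuclear coding genes, 36.8% in replicate 2 and 41.1% in replicate 1 had an expected count at or below that of Cyp17a1. Cyp21a1 was 6345 times its level in replicate 2 and 3247 times its level in replicate 1. The SD of that ratio is 2190 around a mean of 4796, and it rests on these few reads of Cyp17a1.

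Those reads were also split over transcripts in different ways. In replicate 2 the coding transcript Cyp17a1-201 held 12.69 counts and Cyp17a1-202, a retained-intron transcript, held 2.31, which by its short length made up 39.97% of the gene's TPM. In replicate 1 Cyp17a1-201 held 8.44 counts and the coding transcript Cyp17a1-204 held 3.56. Counted over coding transcripts alone the level was 0.24 TPM in replicate 2 against 0.39 TPM in replicate 1. On the TMM scale the count ratio of replicate 2 over replicate 1 was −1.26 on the log2 scale (95% interval −2.56 to −0.14), below the count minimum for the test. Leydig cells, which use Cyp17a1 in the testis, share genes with the adrenal cortex. Of their other markers, Insl3 was at 2.58 TPM in replicate 2 against 1.28 TPM in replicate 1, and Lhcgr, the receptor of luteinizing hormone, at 0.06 TPM in replicate 2 against 0.11 TPM in replicate 1.

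Por (ENSMUSG00000005514.14, chromosome 5, 135670033 to 135735326, plus strand), the NADPH-dependent electron donor of every microsomal P450, had 6603 counts in replicate 2 against 2127 in replicate 1. That corresponds to 90.8 TPM in replicate 2 against 54.3 TPM in replicate 1, or 72.5 ± 25.8 TPM (SD, n = 2). On the coding TPM scale the libraries lay close together, at 268 in replicate 2 and 262 in replicate 1. The level of Cyp21a1 was 27.3 times that of Por in replicate 2 and 23.3 times in replicate 1, 25.3 ± 2.78 on average (SD, n = 2). By transcripts, this hydroxylase outnumbered its donor in both libraries, also by the second quantification, where the mean ratio was 24.6 ± 2.08.

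Cyb5r3 (ENSMUSG00000018042.18, chromosome 15, 83153494 to 83172592, minus strand) encodes the flavoprotein that passes electrons from NADH to cytochrome b5. It had 7950 counts in replicate 2 against 2365 in replicate 1, and its level was 129 TPM in replicate 2 against 73.3 TPM in replicate 1 (101 ± 39.7, SD, n = 2). Coding TPM was 382 in replicate 2 and 354 in replicate 1. The level of Cyb5r3 was 1.43 times that of Por in replicate 2 and 1.35 times in replicate 1. The second quantification gave a ratio of 1.26 in replicate 2 and 1.11 in replicate 1. The antisense gene Gm49463, which overlaps Cyb5r3 on the opposite strand, had 94 counts in replicate 2 against 20 in replicate 1. The genes that overlap Por (Gm16061 and Gm43091) and Cyb5a (Gm16146) on the opposite strand had 0 to 5.21 counts in each library.

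The cytochrome b5 genes were both expressed, with the mitochondrial form above the microsomal one. Cyb5b (ENSMUSG00000031924.4, chromosome 8, 107150640 to 107187471, plus strand) had 28267 counts in replicate 2 against 8273 in replicate 1. Its level was 213 TPM in replicate 2 against 120 TPM in replicate 1, or 166 ± 66.1 TPM (SD, n = 2). Cyb5a (ENSMUSG00000024646.14, chromosome 18, 84838704 to 84879871, plus strand) encodes the microsomal cytochrome b5, which in human steroidogenic cells promotes the androgen-forming step of CYP17A1. It had 3369 counts in replicate 2 against 1061 in replicate 1, and a level of 147 TPM in replicate 2 against 90.9 TPM in replicate 1 (119 ± 40.0, SD, n = 2).

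In coding TPM, Cyb5b was at 630 in replicate 2 and 579 in replicate 1, and Cyb5a was at 436 in replicate 2 and 439 in replicate 1. The level of Cyb5a was 0.691 of that of Cyb5b in replicate 2 and 0.758 in replicate 1, and in the second quantification 0.827 in replicate 2 and 0.812 in replicate 1. The counts lie further apart than the TPM, which divide by length, as Cyb5b-201 is 4316 bases long and Cyb5a-204 is 833. Much of that length is untranslated sequence, 3803 bases after the stop codon in Cyb5b-201 and 287 in Cyb5a-204. The coding sequences matched at 58.6% of 394 aligned bases.

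Pgrmc1 and Pgrmc2 encode heme-binding membrane proteins with a cytochrome b5-like domain, and their symbols come from a progesterone receptor component. PGRMC1 is known to bind P450 enzymes, and PGRMC2 is known as a heme chaperone. Pgrmc1 (ENSMUSG00000006373.10, chromosome X, 36598206 to 36606079, plus strand) had 9722 counts in replicate 2 against 2855 in replicate 1, and a level of 176 TPM in replicate 2 against 99.2 TPM in replicate 1 (138 ± 54.2, SD, n = 2). Pgrmc2 (ENSMUSG00000049940.7, chromosome 3, 41066326 to 41083046, minus strand) had 1534 counts in replicate 2 against 490 in replicate 1. Its level was 18.3 TPM in replicate 2 against 10.3 TPM in replicate 1 (14.3 ± 5.64, SD, n = 2).

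The level of Pgrmc1 was 9.63 times that of Pgrmc2 in replicate 2 and 9.64 times in replicate 1. The second quantification put it at 5.13 times in replicate 2 and 4.67 times in replicate 1. Over protein-coding transcripts alone, a comparison chosen after the transcript tables were seen, the first quantification gave 10.2 ± 0.737 and the second 9.99 ± 0.364 (SD, n = 2). The gap between the quantifications lay in the noncoding transcript Pgrmc2-202. The coding sequences of Pgrmc1 and Pgrmc2 matched at 64.9% of 556 aligned bases, and neither shared a window of 100 bases with another gene.

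In the second quantification the levels were 4050 TPM in replicate 2 against 1707 TPM in replicate 1 for Cyp21a1, and 155 TPM in replicate 2 against 73.7 TPM in replicate 1 for Por. Of the genes between them, replicate 2 had 327 TPM of Cyb5b, 271 of Cyb5a, 263 of Pgrmc1 and 195 of Cyb5r3. Replicate 1 had 141 TPM of Cyb5b, 114 of Cyb5a, 111 of Pgrmc1 and 82.1 of Cyb5r3. Pgrmc2 was at 51.3 TPM in replicate 2 against 23.8 TPM in replicate 1, and Cyp17a1 at 0.845 TPM in replicate 2 against 0.457 TPM in replicate 1. The order of the members was the same as in the first quantification except that Cyb5a stood above Pgrmc1. The level of Pgrmc1 over Cyb5a was 1.19 in replicate 2 and 1.09 in replicate 1 by the first quantification, and 0.972 in replicate 2 and 0.974 in replicate 1 by the second. That pair of neighbours is therefore not ordered by these data.

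Between the libraries the 7 tested members differed little. On the TMM scale, 3 of the 7 members with a mean count of at least 100 passed an exact conditional binomial test after Benjamini-Hochberg adjustment over all 11542 such genes, and all 3 were higher in replicate 2. The test calls 33.3% of all those genes, 17.6% higher and 15.7% lower in replicate 2, and it covers counting error only, so it compares these libraries and no condition. The members' count is close to what the gene table gives as a whole. None of the 7 members was 2-fold or more apart, against 1.32% of all tested genes. Cyp17a1, below the count minimum and not tested, was more than 2-fold lower in replicate 2. Its log2 ratio was −1.26 (counting interval −2.56 to −0.14), on 15 counts in replicate 2 and 12 in replicate 1.

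Cyp21a1 had the largest ratio of the tested members, 0.22 on the log2 scale (adjusted p = 1.85e-155, exact binomial). It exceeded the ratio of 78.2% of tested genes, whose median was 0.03 and whose median absolute value was 0.16. Cyb5b had a ratio of 0.09 (95% interval 0.05 to 0.12, adjusted p = 7.12e-06, exact binomial) and Pgrmc1 one of 0.08 (0.02 to 0.14, adjusted p = 0.0219, exact binomial). Cyb5r3 stood at 0.07 (−0.00 to 0.13, adjusted p = 0.125, exact binomial). Cyb5a stood at −0.02 (−0.12 to 0.08), Pgrmc2 at −0.04 (−0.18 to 0.11) and Por at −0.05 (−0.12 to 0.02), none of which passed the exact binomial test (adjusted p of 0.853, 0.767 and 0.309). The call for Cyb5r3 turned on the scaling, with a ratio of 0.09 and an adjusted p of 0.0373 (exact binomial) when counts were scaled by coding genes.

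**Figure D2:**
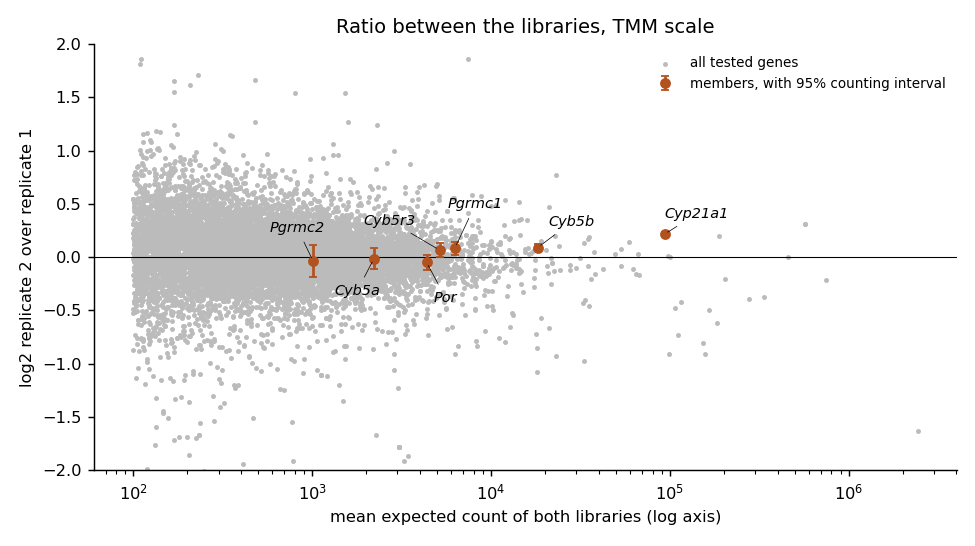
Log2 ratio of replicate 2 over replicate 1 on the TMM scale (vertical axis) against the mean expected count (horizontal, log axis) for the 11542 tested genes in grey, with the 7 tested members in orange and their 95% counting intervals; 43 genes lie outside the axis limit of 2. The members sit between −0.05 and 0.22, and the interval narrows with the count, from Pgrmc2 at the left to Cyp21a1 at the right.

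Cyp21a1 and Cyb5b were made almost wholly of 1 transcript each, and Por was led by the same transcript in both quantifications. For Cyb5r3 and Pgrmc2 the shares differed between the quantifications in both libraries. Cyp21a1-201, which has 10 exons and 487 codons, held 95.4% of the gene's TPM in replicate 2 and 96.3% in replicate 1. By the second quantification it held 97.6% in replicate 2 and 92.1% in replicate 1. Cyb5b-201 held 99.96% in replicate 2 and 100% in replicate 1, by the second quantification 100% in replicate 2 and 92.6% in replicate 1, and Pgrmc1 has a single annotated transcript.

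For Cyb5r3 the quantifications named different leading transcripts. In the first, Cyb5r3-203 held 84.0% of the gene's TPM in replicate 2 and 80.2% in replicate 1, and Cyb5r3-201 held 15.2% in replicate 2 and 18.8% in replicate 1. In the second, Cyb5r3-203 held 35.1% in replicate 2 and 32.8% in replicate 1, and Cyb5r3-201 held 64.0% in replicate 2 and 66.2% in replicate 1. Both libraries took the same side within each quantification. The transcripts share 1941 bases, with 481 bases found only in Cyb5r3-201 and 41 only in Cyb5r3-203.

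The difference between these transcripts touches the protein. Cyb5r3-201 codes for 301 codons and Cyb5r3-203 for 278, from the start codons marked in the printed start sequence. In mammals the N-terminal segment of this reductase anchors it to membranes, and shorter forms without it are soluble. Which start leads in these libraries is not settled by the tables.

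**Figure D3:**
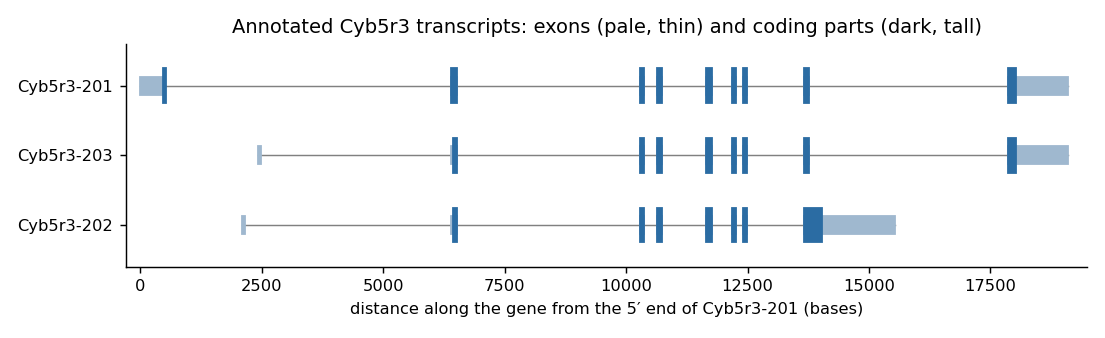
Annotated Cyb5r3 transcripts drawn to scale by distance in bases from the 5′ end of Cyb5r3-201, with exons as pale thin boxes, coding parts as dark tall boxes and introns as lines; the shortest boxes are widened to be visible. Cyb5r3-201 and Cyb5r3-203 differ only at their 5′ end, where Cyb5r3-201 begins its coding part in its own first exon.

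Por-201, which codes for 678 codons, led in every table, with 87.6% of Por TPM in replicate 2 and 73.1% in replicate 1. The rest differed by library in the first quantification. Por-202, which keeps the intron marked in the printed junction, held 0.77% in replicate 2 and 19.67% in replicate 1, on 55.4 counts in replicate 2 and 438 counts in replicate 1. The second quantification gave it 0.322% in replicate 2 and 0.516% in replicate 1. The retained intron is 92 bases long, which is not a multiple of 3, and the coding sequence of Por-202 has 649 codons. The high share of Por-202 in replicate 1 thus appears in 1 of 2 quantifications.

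Cyb5a-204 (134 codons) held 91.1% of Cyb5a TPM in replicate 2 and 83.2% in replicate 1. Cyb5a-205 (110 codons) held 3.98% in replicate 2 and 8.33% in replicate 1 in the first quantification, and 32.9% in replicate 2 and 0% in replicate 1 in the second. Pgrmc2-201 held 90.2% of Pgrmc2 TPM in replicate 2 and 100% in replicate 1 in the first quantification, and 50.1% in replicate 2 and 48.0% in replicate 1 in the second. The rest of Pgrmc2 was Pgrmc2-202, a retained-intron transcript of 596 bases against the 3007 of Pgrmc2-201. By the second quantification it received 155 counts in replicate 2 and 60.9 counts in replicate 1, where Pgrmc2-201 received 1585 in replicate 2 and 501 in replicate 1. Its TPM per count is higher because it is short.

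**Figure D4:**
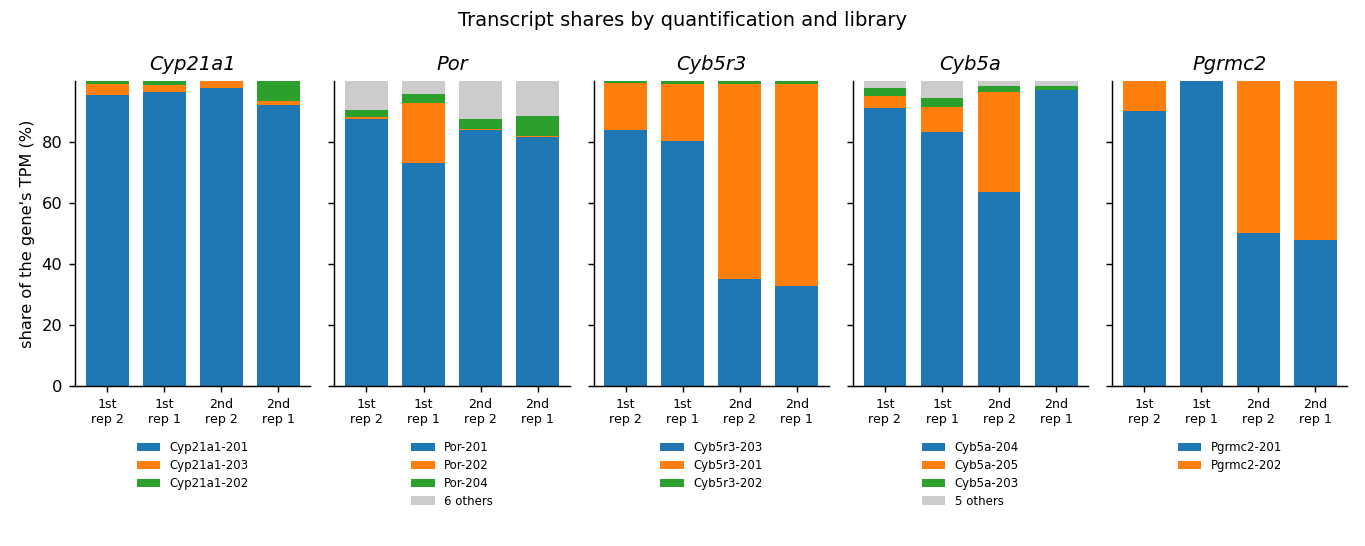
Share of each gene's TPM (vertical axis, percent) on its leading 3 transcripts, with the rest in grey, for the first and second quantification of replicate 2 and replicate 1. Cyp21a1 is led by 1 transcript in all 4 bars, Cyb5r3 and Pgrmc2 change between quantifications in both libraries, and Por-202 exceeds 1% in 1 of the 4 bars of Por.

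The hydroxylases were set against the other P450 genes. The set was the 99 protein-coding genes whose symbol is Cyp, a number and then a letter, which leaves out Cyp51. That gene was at 46.8 TPM in replicate 2 against 48.15 TPM in replicate 1. It is in none of the family's counts, ranks, sums and shares. Of the 99 genes, 24 in replicate 2 and 34 in replicate 1 reached 1 TPM, and 22 did so in both. Cyp21a1 ranked 1 in replicate 2 and 2 in replicate 1, beside Cyp11a1, the mitochondrial enzyme that cleaves the cholesterol side chain, at 2335 TPM in replicate 2 against 1386 TPM in replicate 1. Cyp11b1, which makes corticosterone in mitochondria, followed at 1580 TPM in replicate 2 against 943 TPM in replicate 1. Cyp17a1 ranked 30 in replicate 2 and 51 in replicate 1. The 93 family members outside a set of 6 known mitochondrial enzymes summed to 3105 TPM in replicate 2 against 1720 TPM in replicate 1. Cyp21a1 held 79.7% of that sum in replicate 2 and 73.6% in replicate 1. The sum was 34.2 times the level of Por in replicate 2 and 31.7 times in replicate 1.

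After Cyp21a1 the highest of these genes was Cyp2f2, at 468 TPM in replicate 2 against 320 TPM in replicate 1. Of the P450 genes, 2 reached 1 TPM in replicate 2 alone and 12 in replicate 1 alone. Cyp3a11, a liver enzyme picked for naming after its values were seen, was at 0.06 TPM in replicate 2 against 3.85 TPM in replicate 1. The liver markers given above were higher in replicate 1 in the same way, all 7 of them 2-fold or more. Liver is also rich in Por and Cyb5a. The part of liver reads in the replicate 1 levels of these genes, or in the 12 counts of Cyp17a1 there, was not tested. The ratios on the TMM scale, −0.05 for Por and −0.02 for Cyb5a, cover reads of all tissues in the sample and cannot show that part. By the second quantification the ratio of Cyb5a was −0.15.

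**Figure D5:**
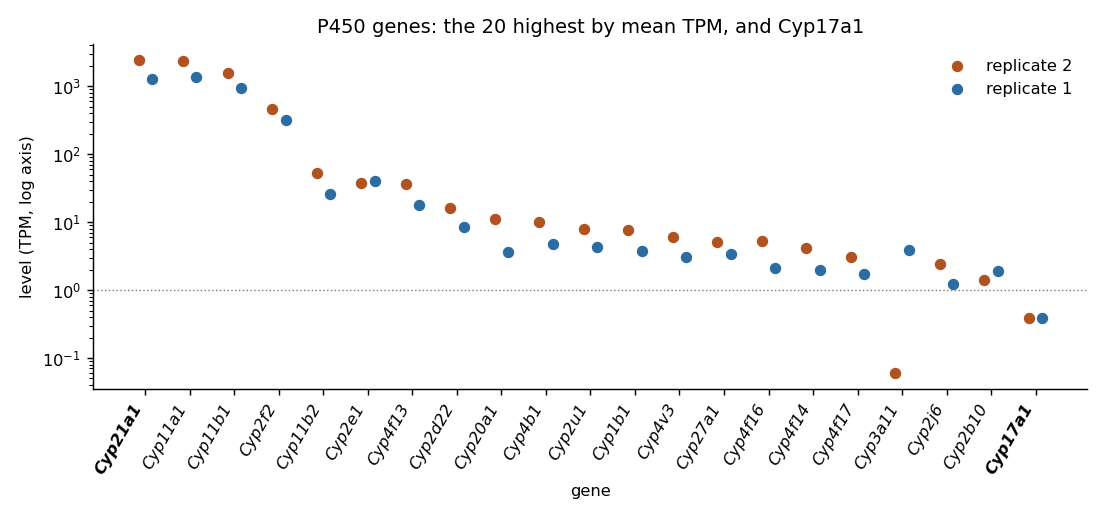
Level in TPM (log axis) of the 20 P450 genes with the highest mean and of Cyp17a1, in replicate 2 (orange, left) and replicate 1 (blue, right), with members in bold and a dotted line at 1 TPM. Cyp51 is not in the set drawn. Cyp21a1, Cyp11a1 and Cyp11b1 lie between 943 and 2474 TPM, and Cyp3a11 is at 0.06 TPM in replicate 2 against 3.85 TPM in replicate 1.

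The genes nearest to Cyp21a1 in level, by the distance of log2 coding TPM over the 2 libraries, were Cyp11a1 (distance 0.155), the progesterone-degrading enzyme gene Akr1c18 (0.251) and the alcohol dehydrogenase gene Adh1 (0.275). Akr1c18 was at 2682 TPM in replicate 2 against 1477 TPM in replicate 1, and Adh1 at 2400 TPM in replicate 2 against 1529 TPM in replicate 1. Nearest to Por were the ribosomal protein-like gene Rps27l, the translation factor gene Eif3c and the proteasome subunit gene Psmb6, at distances of 0.024 to 0.038. A distance over 2 libraries ranks levels only.

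Genes that make NADPH in the cytosol, the mitochondria or, for H6pd, the lumen of the endoplasmic reticulum were all present. Of 6, 6 reached 1 TPM in both libraries, 3 were called higher and 2 lower in replicate 2 by the exact binomial test, against 17.6% and 15.7% of all tested genes, and the median log2 ratio was 0.01. Malic enzyme Me1 led, with 568 TPM in replicate 2 against 366 TPM in replicate 1. The cytosolic isocitrate dehydrogenase Idh1 followed at 311 TPM in replicate 2 against 147 TPM in replicate 1. Pgd, of the pentose phosphate pathway, was at 103 TPM in replicate 2 against 63.7 TPM in replicate 1. Each of these 3 levels exceeded that of Por in the same library, while G6pdx, H6pd and Nnt, at 39.2 to 49.0 TPM in replicate 2 and 13.8 to 34.3 TPM in replicate 1, lay below it.

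The relatives of the b5 system were low. Of 8 other cytochrome b5 and reductase genes in the table, 7 reached 1 TPM in both libraries and 0 of 7 were called by the exact binomial test, against 33.3% of all tested genes. These 7 had 106 to 376 counts in replicate 1. At such counts the test is less able to call a gene than at high counts. The 3 highest were Nenf, a secreted protein with a b5-like domain, at 34.3 TPM in replicate 2 against 23.4 TPM in replicate 1, then Cyb5r1 at 16.9 TPM in replicate 2 against 13.0 TPM in replicate 1, and Cyb5d1 at 16.8 TPM in replicate 2 against 9.15 TPM in replicate 1. Cyb5r2 had no counts in either library. The list summed to 107 TPM in replicate 2 against 69.1 TPM in replicate 1, below the level of Cyb5r3 alone in each library.

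A list of sterol, fatty acid and heme enzymes that draw electrons from Por or cytochrome b5 was lower in replicate 2. All 11 in the table reached 1 TPM in both libraries, and 10 of 11 were called lower in replicate 2 by the exact binomial test, against 15.7% of all tested genes, with a median log2 ratio of −0.35 against 0.03. Microsomal P450 enzymes also use Por. Of the 99 P450 genes above, which leave out Cyp51, 18 had enough counts to be tested. Of those, 5 were called higher and 2 lower, against 17.6% and 15.7% of all tested genes, with a median of 0.22. The 18 include Cyp21a1 and mitochondrial enzymes such as Cyp11a1, which do not use Por. Genes below the count minimum are not in that median. Fads2, a fatty acid desaturase, was at 593 TPM in replicate 2 against 397 TPM in replicate 1. Scd1, which desaturates stearate, was at 359 TPM in replicate 2 against 410 TPM in replicate 1, a log2 count ratio of −0.97. Dhcr7, of cholesterol synthesis, was at 376 TPM in replicate 2 against 274 TPM in replicate 1, a ratio of −0.28. None of the list was 2-fold apart. All 11 had ratios below 0 on the TMM, DESeq2 and coding count scales and 9 of 11 on the spike-in scale, while on total counts, where the median of all genes was 0.91, 1 of 11 did and the list median was 0.54. Markers of adipocytes moved the same way for 5 of 6 genes, and their coding TPM summed to 2767 in replicate 2 against 3651 in replicate 1, while Lep was higher in replicate 2, at 2.09 TPM against 0.64 TPM in replicate 1. Of the erythroid markers 4 of 5 were called lower, with a summed coding TPM at 6173 in replicate 2 against 7336 in replicate 1. On the spike-in scale 3 of those 5 had ratios below 0, with a median of −0.02. Of the liver markers 7 of 7 were called lower. Other marker lists went otherwise. For the X-zone 3 of 3 were called higher, and for the medulla 4 of 6 higher and 2 lower. For the cortex 2 of 7 were called higher and 2 lower, and for endothelium 1 of 4 higher. Of the 3 tested macrophage markers 0 were called. The part of any of these tissues in the ratios was not tested.

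Of the outer mitochondrial membrane enzymes served by Cyb5b, Marc2 was at 102 TPM in replicate 2 against 54.1 TPM in replicate 1, and Marc1 at 0.47 TPM in replicate 2 against 0.93 TPM in replicate 1. In the mitochondrial hydroxylase chain all 6 genes reached 1 TPM in both libraries, with 1 called higher and 1 lower in replicate 2, or 2 of 6 against 33.3% of all tested genes. Fdx1, the ferredoxin that takes the place of Por in mitochondria, was at 534 TPM in replicate 2 against 446 TPM in replicate 1. Its log2 count ratio was −0.50.

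Of the 9 listed steroid pathway enzymes, 5 reached 1 TPM in both libraries, with 1 called higher and 2 lower in replicate 2, against 17.6% and 15.7% of all tested genes. Hsd3b1, which makes the progesterone that Cyp21a1 acts on, was at 5757 TPM in replicate 2 against 2993 TPM in replicate 1. Star, which delivers cholesterol to mitochondria, was at 4508 TPM in replicate 2 against 2476 TPM in replicate 1. Hsd11b1, which interconverts active and inactive glucocorticoids, was at 23.4 TPM in replicate 2 against 15.6 TPM in replicate 1. Cyp19a1, the aromatase that acts on products of the Cyp17a1 route, had no counts in either library.

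The genomic neighbours of the hydroxylases stood well below Cyp21a1 and above Cyp17a1. All 8 genes of that list, which includes the pseudogene Cyp21a2-ps, reached 1 TPM in both libraries. Of them 1 was called higher and 1 lower in replicate 2, or 2 of 8 against 33.3% of all tested genes. The 1 called higher was Cyp21a2-ps, whose level is uncertain as stated above. Beside Cyp21a1, the complement gene C4a, whose expected counts were also not whole, was at 56.2 TPM in replicate 2 against 31.1 TPM in replicate 1. Beside Cyp17a1, Wbp1l was at 62.4 TPM in replicate 2 against 32.4 TPM in replicate 1.

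The promoter table of RefSeq held entries for 4 members, Por, Cyb5b, Pgrmc1 and Pgrmc2, and none for Cyp21a1, Cyp17a1, Cyb5r3 and Cyb5a. The letters AAGGTCA, a site type bound by steroidogenic factor 1, were searched on both strands and occurred in 0 of the 4, against 4.72% of all 32851 promoters of that length. TATAAA occurred in 0 of the 4, against 13.6% of all. These letters are absent from these windows, which says nothing of binding elsewhere.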

How the data were processed

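Total RNA was sequenced from 2 adrenal gland libraries. The authors deposited, per library, a gene table with expected counts and TPM, a first transcript table from the same quantification with TPM and the percent of each gene's TPM per transcript, and a second transcript table with estimated counts and TPM from another quantification. Per the deposited notes the annotation was GENCODE M21 on mm10. Which program made the tables is not given in the sources used here. Effective lengths in the tables were 99 bases below the lengths in the first quantification, and 334.1 bases in replicate 2 and 292 bases in replicate 1 below them in the second, which affects the TPM of short transcripts most.

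The second transcript table was summed per gene. Coding TPM rescaled TPM over nuclear protein-coding genes without Lars2. Ratios set replicate 2 over replicate 1 on the log2 scale. Expected counts, rounded to whole numbers for scaling and testing, were scaled by TMM in edgeR 4.0.16 under R 4.3.3, and 1 count was added to each before the ratio. Each gene with a mean count of at least 100 was tested by an exact conditional binomial test, two-sided, adjusted over all of them, with a threshold of 0.05. Intervals are exact for the counts as given and cover counting error only, as there is no replicate within a library. PCR copies cannot be told from separate molecules. Neither they nor the split of reads between Cyp21a1 and Cyp21a2-ps are covered. The test was also run on simulated Poisson counts. These hold counting error alone, so that run cannot show how the test fares with other spread between libraries. Alternatives were DESeq2 1.42.0 size factors, total, spike-in and coding counts, other priors and count minimums, the second quantification and each library alone.

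Sequences, exons and codons came from the GENCODE M21 transcripts, and shared windows were exact matches of 100 bases on the transcript strand. Transcript names, gene symbols and positions came from that annotation. Genes named beside the members were the 3 with the highest mean TPM of each list, those 2-fold or more apart, the 3 nearest in level to Cyp21a1 and to Por, and overlapping genes. Marker lists are given by their sums and counts. Cyp2f2, Cyb5r2, Cyp3a11, Cyp51, G6pdx, H6pd and Nnt were named outside that rule, after their values were seen. The members and lists were chosen with earlier results of these data known. Python 3.11.15, numpy 2.4.6, scipy 1.17.1, pandas 2.3.3 and matplotlib 3.10.9 were used.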

Additional observations from a re-analysis of the deposited data

How the results depend on the processing

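No paired analysis was possible because the study holds 1 group, so there is no comparison between groups to block. In the second quantification the level of Cyb5a over Cyb5b averaged 0.820, of Cyb5r3 over Por 1.19 and of Pgrmc1 over Pgrmc2 4.90, the share of Cyb5r3-203 was 34.0% in place of 82.1%, and that of Pgrmc2-201 was 49.0% in place of 95.1%; the cause was not tested. Over protein-coding transcripts alone, chosen after seeing the data, the first and second quantification gave 0.676 and 0.824 for Cyb5a over Cyb5b, 1.49 and 1.32 for Cyb5r3 over Por, and 10.2 and 9.99 for Pgrmc1 over Pgrmc2. For Cyp21a1 over Cyp17a1 the second gave 7538 with an SD of 5792, a ratio limited by the depth of Cyp17a1.

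The number of genes 2-fold or more apart was 152, and it became 911 with a mean count minimum of 10, 4840 with no minimum and 4167 on total counts. Total counts also raised the binomial calls to 11359, against 3841, and turned the ratios of Por to 0.84, Cyb5a to 0.87 and Pgrmc2 to 0.85; that scaling moved the median of all genes to 0.91, so all 3 stayed below the median. Spike-in scaling moved the median to 0.16. Cyb5r3 passed the test on 4 alternatives (total, spike-in and coding counts and the second quantification), and Cyb5a was lower in replicate 2 in the second quantification (−0.15, adjusted p = 0.0219, exact binomial). Each library alone gave Cyb5r3-203 shares of 80.2% to 84.0%. The counts of genes 2-fold apart within the lists were not run under the alternatives. Depth limits Cyp17a1, with 15 counts in replicate 2 and 12 in replicate 1.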
